A study of Mus musculus with 4 samples.

Results

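The genes described here are 87 of the 31055 genes listed for each library, chosen by symbol from the families that build and move motile cilia: axonemal dynein heavy chains (Dnah, 14 genes), their intermediate and light chains (Dnai and Dnal, 5), dynein assembly factors (Dnaaf, 4), radial spoke proteins (Rsph, 7), cilia and flagella associated proteins (Cfap, 24), dynein regulatory complex subunits (Drc, 3), tektins (Tekt, 5), intraflagellar transport proteins (Ift, 14), sperm associated antigens (Spag, 9), and the single genes Foxj1 and Dynlrb2. Of 97 symbols that matched these names, 87 had at least 10 unique molecular identifiers (UMIs, which count single RNA molecules) over the 4 libraries. Neither choice used a difference between cell types or genotypes. A gene could however reach 10 UMIs through 1 cell type alone, as Rsph14 did, with all 37 of its UMIs in the ependymal barcodes described below. The libraries were 10x Genomics 3′ single-cell RNA sequencing of dissociated hippocampus from male mice 3 months old on the C57BL/6J background, 1 mouse each. The labels give 2 wild-type mice (WT) and 2 labelled Dp2Yey, which carry the Dp(10)2Yey duplication on 1 copy of chromosome 10 and were littermates of the WT mice. The duplicated segment, from Prmt2 to Pdxk, spans chr10:76207222-78464975 (mm10), is orthologous to part of human chromosome 21 and is the only labelled change, so that the mice model that segment alone. It holds 0 of the 87 genes, of which 3 (Rsph4a, Rsph14 and Cfap54) lie elsewhere on chromosome 10.

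Motile cilia beat because rows of axonemal dynein, held on the outer microtubules of the axoneme, walk along the neighbouring microtubule, while radial spokes and the central pair of microtubules set the order in which they act. In the brain they stand in tufts on ependymal cells, which line the ventricles and move cerebrospinal fluid, and ependymal cells need the transcription factor FOXJ1 to make them. Choroid plexus epithelium, which secretes that fluid and adjoins the ependyma, also has tufts of cilia, whereas astrocytes and neurons have at most a primary cilium, which lacks dynein arms but is built by the same intraflagellar transport.

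Barcodes were clustered without 188 cilium genes, which include the 87, so that the values of the 87 did not enter the clustering. The ependymal markers stayed in it, and 6 of them were among the 10 leading genes that named the ependymal cluster. Genes that vary together with these markers can be high there by the way the class was drawn. The class was not shown to be independent of the 87 genes. The ependymal-like cluster (called ependymal from here on) had 126 of the 6246 barcodes analysed, and the choroid plexus-like, astrocyte-like and neuron-like clusters had 126, 891 and 427. Microglia, which have no motile cilia, had 2580 barcodes and are given beside them, although some of the 87 genes had UMIs there too. All 24 ependymal marker genes had UMIs in the ependymal barcodes, where they summed to between 20224 and 22418 CPM (the UMIs of a gene per 1000000 UMIs of that class in that library), against 2632 to 3210 CPM in astrocyte, 877 to 1161 CPM in choroid plexus and 539 to 997 CPM in neuron barcodes. The choroid plexus hormone carrier Ttr had a mean of 124490 CPM in choroid plexus and 3.07 CPM in ependymal barcodes. Clusters were named by such markers, at least 3 among their 10 leading genes, so these levels restate the naming and add no support to it. Ependymal barcodes also held astrocyte markers, at 8625 to 9848 CPM summed over 26 genes. They held choroid plexus markers at 2135 to 2300 CPM over 26 genes, of which 19 had UMIs, although Ttr was low. Those markers summed to 101943 to 177341 CPM in choroid plexus, 116 to 217 CPM in astrocyte and 92.6 to 174 CPM in neuron barcodes. Among the classes compared, astrocyte barcodes held microglia markers at 27453 to 34316 CPM over 20 genes, beside 52340 to 59632 CPM of their own. Choroid plexus barcodes held microglia markers at 1056 to 9834 CPM. Neuron barcodes held oligodendrocyte markers at 2115 to 8565 CPM, astrocyte markers at 3260 to 7420 CPM and microglia markers at 2063 to 6530 CPM, beside 10520 to 20890 CPM of their own. Dp(10)2Yey replicate 1 had the highest of these 3 foreign sums and the lowest of neuron markers. The part of such foreign RNA in the results was not tested.

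Library totals ran from 3002546 to 9612011 UMIs. Ependymal barcodes numbered 60 and 15 in WT replicates 1 and 2 and 17 and 34 in Dp(10)2Yey replicates 1 and 2, with 103538 to 382197 UMIs a library. WT replicate 1 stood apart in holding 60 of the 126 ependymal barcodes, which had a median of 1043 UMIs, against medians of 4365 to 9686.5 in the other libraries. The main counts between classes are given below with and without this library. Choroid plexus sums were smaller, at 35328 to 162002 UMIs, so that a count of 0 over its 4 libraries allows up to 9.91 CPM. Of all barcode sequences, 8 occurred in at least 2 libraries, 2 of the barcodes concerned being ependymal. Neuron barcodes had a median mitochondrial share of 27.8%, and 154 of the 427 remained once barcodes over 20% were removed. In that setting 52 genes of the module were called higher in ependymal than in neuron barcodes, of 56 tested, where 28.8% of all genes were.

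Promoters are shown first, for genes whose start region carries the letters bound by RFX factors, a family known to act on cilium genes. RefSeq (GRCm38.p6) gave 80 promoters for 72 of the 87 genes, each from 250 bases before to 50 bases after the start site. Searched on both strands, an inverted pair of RFX cores (GTTNCNNNGNAAC, GTTNCNNNNGNAAC or GTTNCNNNNNGNAAC, which differ in the spacer) occurred in 21 of these 80 promoters (26.2%), against 2.37% of all 32851 promoters in the same table. The core GTTGCC, which can overlap a pair, occurred in 30 of the 80 (37.5%) against 12.5% of all. By contrast, the forkhead letters GTAAACA of FOXJ1 occurred in 3 of 80 (3.75%), against 3.65% of all. Pairs were found for 1 of 11 Ift promoters and for 20 of the 69 others (29.0%). The core did not split in this way, with 5 of the 11 Ift promoters and 25 of the 69 others (36.2%). A core or a pair occurred in 5 of the 11 and 33 of the 69 (47.8%). These are matches of letters and were not tested as binding. The following 5 promoters, each of a gene described further on, show the pair in different families and at different distances from the start. Bases run from 250 before the start site through the first 30 of the transcript, on the strand of the gene, with RFX cores and pairs in capitals, and positions count the start site as 0.
Spag17, central pair, chr3:99885167-99885446, plus strand, pair from -209: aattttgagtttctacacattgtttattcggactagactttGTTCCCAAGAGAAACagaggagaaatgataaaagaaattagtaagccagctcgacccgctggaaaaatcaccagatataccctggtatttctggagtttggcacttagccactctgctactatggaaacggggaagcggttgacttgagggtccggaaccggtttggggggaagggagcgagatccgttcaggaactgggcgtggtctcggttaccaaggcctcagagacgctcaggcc
Dnah6, inner arm dynein heavy chain, chr6:73221602-73221881, minus strand, pair from -36: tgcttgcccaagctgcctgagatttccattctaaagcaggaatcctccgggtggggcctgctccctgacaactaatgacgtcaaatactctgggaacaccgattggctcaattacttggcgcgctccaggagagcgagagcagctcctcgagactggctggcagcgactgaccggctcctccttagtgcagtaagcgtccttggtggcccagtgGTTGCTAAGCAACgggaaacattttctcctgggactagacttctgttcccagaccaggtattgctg
Dynlrb2, dynein light chain, chr8:116504765-116505044, plus strand, core and pair from -51: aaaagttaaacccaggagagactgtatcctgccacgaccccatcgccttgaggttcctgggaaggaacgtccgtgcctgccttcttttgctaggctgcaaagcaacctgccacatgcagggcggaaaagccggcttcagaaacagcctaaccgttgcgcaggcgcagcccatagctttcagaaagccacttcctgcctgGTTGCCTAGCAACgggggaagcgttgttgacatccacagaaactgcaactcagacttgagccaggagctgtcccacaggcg
Drc3, dynein regulatory complex, chr11:60353130-60353409, plus strand, pair from -2: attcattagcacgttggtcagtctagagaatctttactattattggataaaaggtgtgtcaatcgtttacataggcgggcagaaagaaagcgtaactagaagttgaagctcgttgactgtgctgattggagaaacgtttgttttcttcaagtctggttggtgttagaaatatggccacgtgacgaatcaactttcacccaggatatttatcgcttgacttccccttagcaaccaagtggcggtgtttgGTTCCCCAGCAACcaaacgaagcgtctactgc
Tekt4, tektin, chr17:25471340-25471619, plus strand, pairs from -36 and 0: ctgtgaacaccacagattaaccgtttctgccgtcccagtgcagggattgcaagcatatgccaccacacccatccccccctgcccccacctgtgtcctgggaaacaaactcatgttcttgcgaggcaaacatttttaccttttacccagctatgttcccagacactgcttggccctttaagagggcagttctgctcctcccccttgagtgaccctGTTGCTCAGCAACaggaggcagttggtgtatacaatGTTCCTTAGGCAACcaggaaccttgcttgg

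The 87 genes together made up a larger part of the RNA of ependymal barcodes than of any of the classes compared. In WT replicates 1 and 2 and Dp(10)2Yey replicates 1 and 2 they summed to 13509, 15627, 13802 and 15924 CPM in ependymal barcodes, a mean of 1.47% of UMIs. Choroid plexus barcodes had 3736, 3160, 3260 and 4130 CPM (0.357%). Astrocytes lay between 1150 and 1294 CPM (0.122%) and neurons between 715 and 1254 CPM (0.103%), against 507 to 542 CPM (0.0528%) in microglia. The neuron share was 0.0594% once each barcode was thinned to 500 UMIs. By CPM, the lowest ependymal library lay above the highest library of each other class. Of the 32187 UMIs of these genes in all analysed barcodes, 36.8% came from the 126 ependymal barcodes, and this share was 84.8% for Dnah, 85.2% for Drc, 88.0% for Dynlrb2 and 81.8% for Tekt, but 18.5% for Ift and 12.9% for Spag.

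**Figure D1:**
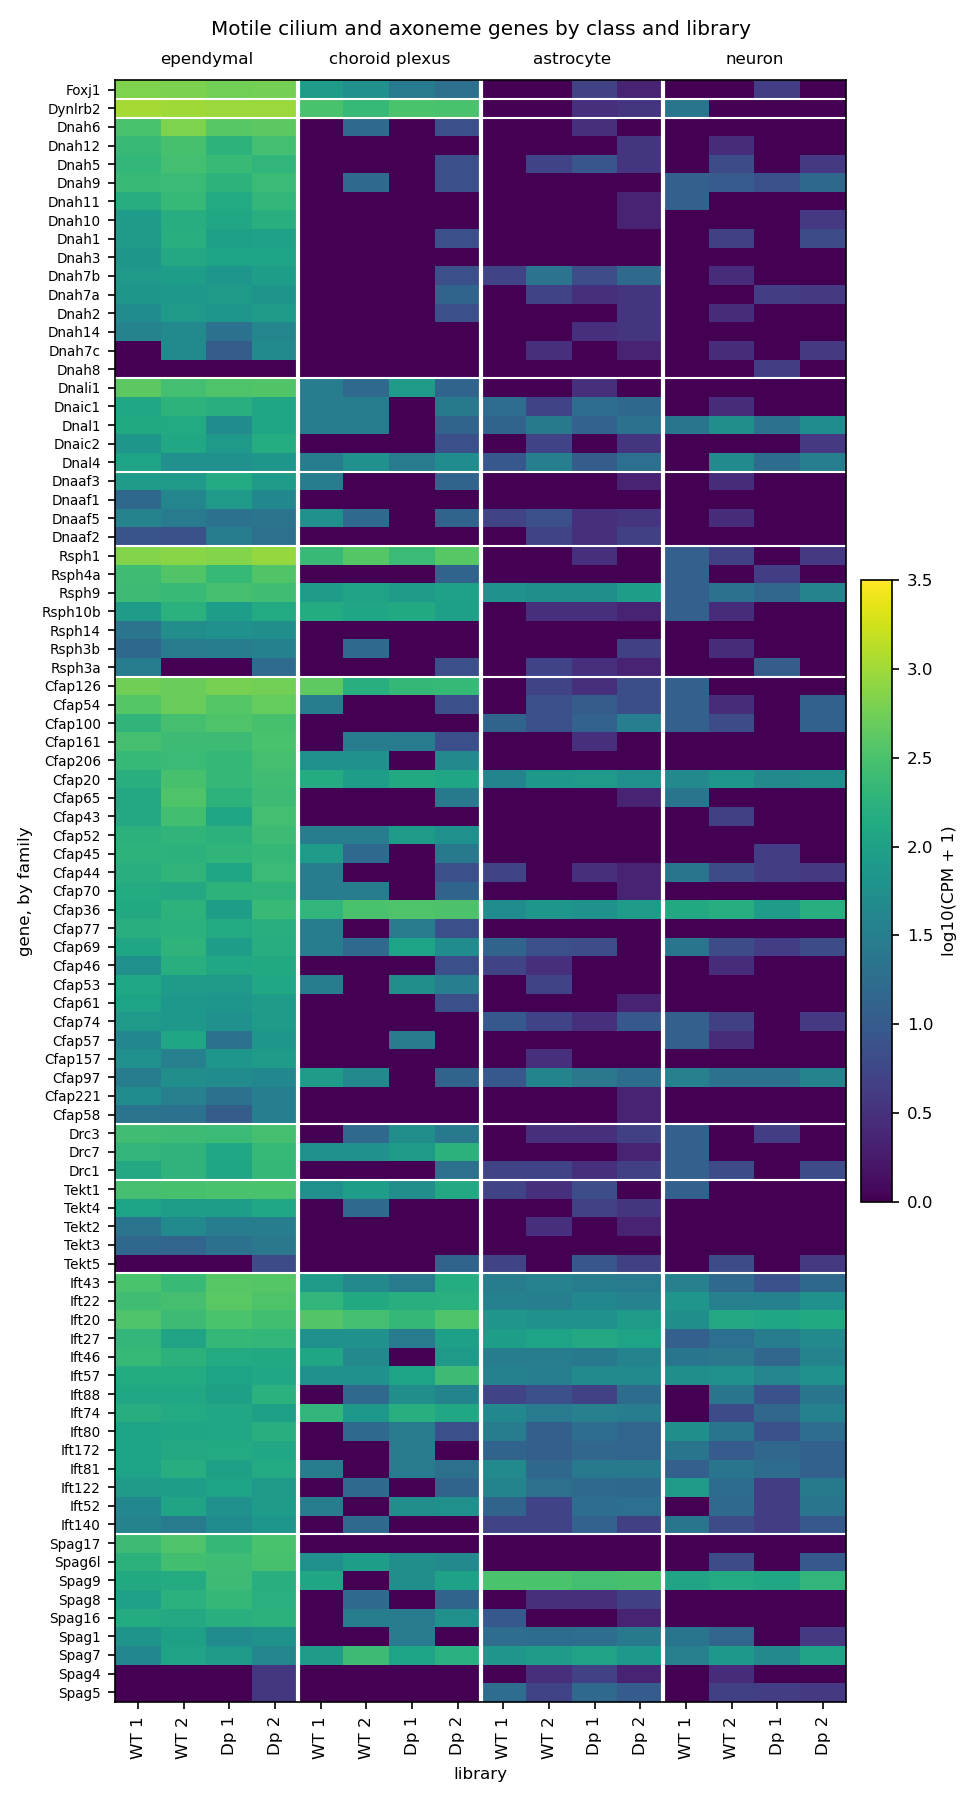
Heat map of each of the 87 genes (rows, by family) in each of the 4 libraries (columns) of 4 classes of barcodes, coloured by log10(CPM + 1). Dnah rows are bright in the ependymal block, except Dnah8 and Dnah7c in WT replicate 1, and dark or dim in the other blocks, where Dnah7b in astrocytes and Dnah9 in neurons have signal in all 4 libraries, while several Ift rows and Spag9, Spag7 and Cfap36 have signal in every block.

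Classes were compared with edgeR's quasi-likelihood test on UMIs summed per library and class, with the library as a block and Benjamini-Hochberg adjustment over all genes tested (threshold 0.01). With no filter on low counts, so that all 87 genes were tested, 67 were higher and 1 lower in ependymal than in choroid plexus barcodes, where 13.2% of all 17572 genes were called higher and 3.74% lower. Against astrocytes 77 were higher and 1 lower (all genes: 10.1% higher and 9.15% lower), and against neurons 78 were higher and 0 lower (12.3% and 11.3%). The 17572 genes include many with too few UMIs to be called, whereas the 87 had at least 10 UMIs. These shares of all genes are therefore low as a comparison, here and wherever they are repeated below. Some of the 87 also reached 10 UMIs through ependymal barcodes alone. The median log2 difference over the 87 genes was 3.58 against choroid plexus, 5.29 against astrocytes and 5.56 against neurons, beside medians over all genes of 0.90, -0.11 and -0.08. Genes with 0 UMIs in the other class enter these medians with fitted values. Over pooled libraries, with lower bounds for such genes, the medians were 2.76, 5.60 and 5.19, so the order of astrocytes and neurons was not settled. In the filtered fit described next, the all-gene median against choroid plexus was 0.96 with TMM scaling, 1.25 with RLE factors and 0.56 with DESeq2, where 73.0%, 79.2% and 60.4% of all calls were higher, and differences against choroid plexus are to be read beside it. With the low-count filter 65 of the 87 genes remained, and the calls against choroid plexus, astrocytes and neurons were 56, 62 and 62 higher and 1, 1 and 0 lower. A gene can pass this filter through its ependymal counts alone, so that these numbers add no support to those without the filter. The same limit holds for the filtered counts and the single-gene p-values between classes given below. Adjusted p-values and log2 differences of single genes below are from this filtered fit over 4778 genes, in which 36.5%, 24% and 28.4% of all genes were called higher and 13.5%, 22.9% and 24.1% lower in ependymal barcodes. With DESeq2 in place of edgeR, 45, 59 and 57 of the 65 were higher and 2, 1 and 0 lower, beside 24.4%, 20.2% and 23.8% of all genes higher and 16.1%, 20.8% and 23.7% lower. Without WT replicate 1 the filtered calls were 61, 67 and 66 higher of 71 tested, beside 25.6%, 20% and 24% of all genes, and with no filter 59, 76 and 73 of 87, beside 10.2%, 9.07% and 11%. The lowest ependymal library lay above the highest choroid plexus library for 67 of the 87 genes (21.3% of the 16060 genes with at least 10 UMIs), above the highest astrocyte library for 77 (15.6%) and above the highest neuron library for 76 (16.7%). For 64 genes it lay above all libraries of the 3 classes (7.83%). Without WT replicate 1 these were 71, 79, 78 and 68 genes (27.1%, 19.7%, 21.4% and 10.8% of all genes).

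The transcription factor gene Foxj1 (chr11:116330704-116335399, minus strand), on which motile cilia depend, had 658, 649, 570 and 581 CPM in the ependymal barcodes of the 4 libraries, in the order WT replicates 1 and 2, then Dp(10)2Yey replicates 1 and 2, which is kept below. The mean was 614 ± 45.4 CPM (SD, n = 4), and 97 of the 126 ependymal barcodes had a Foxj1 UMI. In choroid plexus barcodes Foxj1 had 84.9, 58.8, 26.7 and 18.5 CPM from 11 UMIs, a log2 difference of 4.07 ± 0.35 (SE, edgeR's quasi-likelihood test, adjusted p = 5.8e-17). All 4 ependymal libraries lay above all 4 choroid plexus libraries. Of the 11 choroid plexus UMIs, 1 lay in the 74 barcodes that had no UMI of 6 ependymal markers. These 74 barcodes held 118046 of the 302786 UMIs of the class, and the source of the Foxj1 UMIs was not tested. Astrocytes had 3 Foxj1 UMIs, neurons 1 and microglia 2.

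Dyneins supply the force, and their heavy chains hold the motor. Summed over the 14 Dnah genes, ependymal libraries had 1591, 2479, 1690 and 2033 CPM, and choroid plexus libraries had 0, 29.4, 0 and 49.4 CPM. Means in astrocytes, neurons and microglia were 21.3, 22.7 and 2.21 CPM. Without a count filter 13 of the 14 were called higher in ependymal barcodes against each of the 3 classes, beside 13.2%, 10.1% and 12.3% of all genes against choroid plexus, astrocytes and neurons. The exception was Dnah8, a heavy chain known from testis, with 0 UMIs in ependymal barcodes. Dnah7a, Dnah7b and Dnah7c are near-identical copies between which reads may have been split, and their separate values are uncertain.

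Dnah6, an inner arm heavy chain gene (chr6:73017606-73221651, minus strand) whose promoter holds an RFX pair, had 311, 662, 386 and 419 CPM in ependymal barcodes. Choroid plexus had 2 Dnah6 UMIs in all, so that the ependymal level over pooled libraries was 67.1 times higher (95% counting interval 18.4 to 556). Neurons had 0 Dnah6 UMIs, which puts the ependymal level at least 193-fold higher, taking 3 UMIs over the 4 libraries as the most a count of 0 allows. WT replicate 2 was the highest of the ependymal libraries, and the 4 did not overlap with any other class. Dnah12, another inner arm chain, had 233, 299, 184 and 280 CPM in ependymal and 0 UMIs in choroid plexus barcodes, at least 26.5-fold apart. Dnah5, an outer arm chain whose loss causes primary ciliary dyskinesia, had 205, 286, 232 and 199 CPM, against 1 UMI in choroid plexus and 8 in astrocytes. The axonemal heavy chain genes Dnah10, Dnah11 and Dnah3 likewise had 0 UMIs in choroid plexus, with ependymal means of 130, 177 and 103 CPM.

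Among the smaller dynein subunits, Dynlrb2 (chr8:116504974-116515915, plus strand), a roadblock light chain, had 1054, 986, 937 and 937 CPM in ependymal barcodes (mean 978 ± 55.4, SD, n = 4). Choroid plexus libraries had 311, 220, 321 and 315 CPM of Dynlrb2, a log2 difference of 1.87 ± 0.25 (edgeR's quasi-likelihood test, adjusted p = 1.8e-09). Both classes stood clear of astrocytes (3 UMIs), neurons (2 UMIs) and microglia (3 UMIs). Dnali1, a light chain of the inner arms, had 410, 286, 348 and 356 CPM in ependymal barcodes and 28.3, 14.7, 80.2 and 12.3 CPM in choroid plexus, from 7 UMIs. Dnaic1 and Dnal1, an intermediate and a light chain of the outer arms, had ependymal means of 144 and 109 CPM. Dnal1 was also present in neurons (36.0 CPM) and astrocytes (17.2 CPM), from which ependymal barcodes differed by 1.32 ± 0.31 and 2.41 ± 0.32 on the log2 scale (edgeR's quasi-likelihood test, adjusted p = 1.4e-04 and 3.0e-10).

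Dnaaf genes, whose products fold and assemble dynein arms in the cytoplasm before they enter the cilium, are needed for motility but are no part of the axoneme. The 4 of them summed to a mean of 180 CPM in ependymal barcodes, 31.1 CPM in choroid plexus, 6.35 CPM in astrocytes and 0.908 CPM in neurons. Dnaaf3 had 84.9, 77.9, 135 and 86.3 CPM in ependymal barcodes, of which the first Dp(10)2Yey library was the highest. Dnaaf1 had 14.1, 38.9, 77.3 and 41.9 CPM there and 0 UMIs in choroid plexus, astrocytes, neurons and microglia, so that its ependymal level was at least 4.13-fold above choroid plexus and at least 28.6-fold above astrocytes. Dnaaf5 had a mean of 25.4 CPM in ependymal and 20.9 CPM in choroid plexus barcodes, the latter from 5 UMIs, and the low-count filter removed it from the test.

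Radial spokes link the outer microtubules with the central pair. Rsph1 (chr17:31255019-31277383, minus strand), a spoke head protein, had 707, 759, 715 and 874 CPM in ependymal and 226, 382, 240 and 383 CPM in choroid plexus barcodes, a log2 difference of 1.37 ± 0.24 (edgeR's quasi-likelihood test, adjusted p = 1.4e-06). In astrocytes, neurons and microglia Rsph1 had 1, 4 and 0 UMIs. Rsph4a, also a spoke head protein, had 262, 357, 222 and 353 CPM in ependymal barcodes but 2 UMIs in choroid plexus, 48.4 times lower there over pooled libraries (13.3 to 402). Rsph9, the other head protein named, was present outside both epithelia, with 64.9 ± 17.0 CPM in astrocytes against 260 ± 24.7 CPM in ependymal barcodes (SD, n = 4). Rsph3a and Rsph3b are near copies and are uncertain.

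The dynein regulatory complex joins neighbouring microtubule doublets. Drc3 had 269, 247, 241 and 290 CPM in ependymal and 0, 14.7, 53.4 and 24.7 CPM in choroid plexus barcodes, and Drc1 had an ependymal mean of 161 CPM against 3 choroid plexus UMIs. Drc7 differed from them in choroid plexus. It had 198, 188, 126 and 220 CPM in ependymal and 56.6, 58.8, 80.2 and 179 CPM in choroid plexus barcodes, where the second Dp(10)2Yey library overlapped the ependymal range. Its log2 difference of 0.83 ± 0.33 did not pass the threshold (edgeR's quasi-likelihood test, adjusted p = 0.023), and without that library it was 1.74 (adjusted p = 0.0073). With all 4 libraries it also passed with RLE factors (1.13, adjusted p = 0.0021) and without integration of the libraries (1.27, adjusted p = 0.0030).

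The central pair of microtubules carries projections that the spokes touch. Spag17 (chr3:99885406-100143322, plus strand), a large protein of the central pair, had 248, 338, 212 and 314 CPM in ependymal barcodes and 0 UMIs in choroid plexus, astrocyte and neuron barcodes. The ependymal level was therefore at least 29.6-fold, 204-fold and 128-fold higher. Cfap54, which belongs to a central pair projection, had 382, 506, 377 and 474 CPM in ependymal barcodes and 2 UMIs in choroid plexus (68.2 times lower, 18.7 to 565). Spag6l, a central pair protein, had 177, 273, 261 and 303 CPM in ependymal and 56.6, 88.2, 53.4 and 43.2 CPM in choroid plexus barcodes, and since its near copy Spag6 was also listed its level is uncertain.

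Other Cfap genes and tektins included both patterns. Cfap126, which acts at the base of motile cilia, had 545, 506, 599 and 562 CPM in ependymal and 425, 162, 214 and 222 CPM in choroid plexus barcodes (log2 difference 1.34 ± 0.25, edgeR's quasi-likelihood test, adjusted p = 4.4e-06). Cfap100, which regulates inner arm dyneins, had 191, 292, 348 and 304 CPM in ependymal barcodes and 0 UMIs in choroid plexus, at least 28.9-fold apart. Summed over 24 Cfap genes, means were 4218 CPM in ependymal, 985 CPM in choroid plexus, 189 CPM in astrocyte and 260 CPM in neuron barcodes. Tekt1, a filament protein inside the microtubule doublets, varied little between ependymal libraries, with 290, 299, 309 and 314 CPM (SD 10.8), against 56.6, 88.2, 53.4 and 130 CPM in choroid plexus. Tekt4 had 106, 90.9, 86.9 and 123 CPM in ependymal barcodes and 1 UMI in choroid plexus. Tekt2 had a mean of 31.1 CPM in ependymal barcodes and 0 UMIs in choroid plexus.

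Intraflagellar transport carries parts into every cilium, motile or primary, and the Ift genes were the family with the smallest median log2 difference against astrocytes (2.20 over 14 genes, no filter) and neurons (2.45), save Spag against astrocytes (1.49). Even so, 13 of the 14 were called higher in ependymal barcodes than in astrocytes, 14 than in neurons and 10 than in choroid plexus (10.1%, 12.3% and 13.2% of all genes). Ift43, a subunit of the complex that returns cargo to the cell body, had 325, 227, 386 and 382 CPM in ependymal, 84.9, 44.1, 26.7 and 148 CPM in choroid plexus and at most 35.1 CPM in astrocyte barcodes. Ift22, of the outbound complex, had a mean of 324 CPM in ependymal and 164 CPM in choroid plexus barcodes (log2 difference 1.09 ± 0.27, edgeR's quasi-likelihood test, adjusted p = 3.0e-04), a call lost with DESeq2 (0.79, adjusted p = 0.016). Ift20, which also serves at the Golgi, had 347, 253, 319 and 272 CPM in ependymal and 368, 279, 214 and 346 CPM in choroid plexus barcodes, and these overlapped (log2 difference 0.04 ± 0.26, adjusted p = 0.91, and -0.23 with DESeq2). Its level in microglia, 65.9 CPM, was close to that in astrocytes, 67.2 CPM.

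The level in choroid plexus relative to ependymal barcodes ranged widely between genes, given here as the ratio of the means over 4 libraries. Of the 56 genes with a mean of at least 100 CPM in ependymal barcodes, 15 had over 30% of that level in choroid plexus and 20 had under 5%, of which 13 had 1 to 4 UMIs there and 7 had 0. For 3 of the 7, Dnah3, Dnah10 and Dnah11, a count of 0 still allows 5.27% to 9.56% of the pooled ependymal level, and all 13 with UMIs have a 95% counting interval that reaches 5.34% to 18.4%. By these limits 4 of the 20 stayed under 5%, Dnah12, Spag17, Cfap100 and Cfap43, all with 0 UMIs. The 3 UMIs taken as the most a count of 0 allows are fewer than the 95% counting interval would allow. Genes with and without UMIs were thus not held to a single rule, and Cfap43, at 4.30%, lay nearest to 5%. Without WT replicate 1 the counts were 13 over 30% and 20 under 5%, of 55 genes. The higher group held transport and base genes such as Ift74 (110%), Ift20 (101%), Ift57 (91.4%) and Cfap126 (46.2%), but also axonemal ones, Rsph10b (102%), Drc7 (51.2%) and Rsph1 (40.3%). Cfap36, described below, was in this group too. Over pooled libraries its ependymal level was 0.60 times that in choroid plexus (counting interval 0.46 to 0.78). The order of Ift74, Ift20, Ift57 and Rsph10b was not settled over pooled libraries: the ependymal level over that in choroid plexus was 0.94 for Ift74 (counting interval 0.64 to 1.41), 0.91 for Ift20 (0.71 to 1.17), 0.78 for Ift57 (0.55 to 1.11) and 1.16 for Rsph10b (0.78 to 1.78). All 8 Dnah genes of that level had few UMIs in choroid plexus, 4 of them 1 or 2 and 4 of them 0. Ratios on so few UMIs are imprecise, as for Dnah9 with 2 UMIs, 35.1 times lower over pooled libraries with a counting interval of 9.57 to 292. For Dnah12, Spag17, Cfap100 and Cfap43, 0 UMIs allow 3.38% to 4.30% of the ependymal level. In all 21 of the 87 genes had 0 UMIs in choroid plexus. These shares are descriptions over single genes and no family was tested against another.

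Ependymal RNA in choroid plexus barcodes was looked for with 6 markers that led the ependymal cluster. Tmem212, Ccdc153 and Fam183b had means of 2092, 2079 and 777 CPM in ependymal barcodes and 0 UMIs in choroid plexus. Rarres2 had 3 UMIs there, Mia 29 and 1110017D15Rik 67. The last had a mean of 267 CPM in choroid plexus against 874 CPM in ependymal barcodes. Setting barcodes apart by the 6 markers thus rests mostly on Mia and 1110017D15Rik. In the 74 choroid plexus barcodes without a UMI of any of the 6, which held 118046 UMIs, Rsph1 was at 364 CPM, Ift20 at 237 CPM, Cfap126 at 203 CPM and Dynlrb2 at 186 CPM. The absence of the 6 markers is how these barcodes were selected, and the part of ependymal RNA in the choroid plexus levels was not tested.

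**Figure D2:**
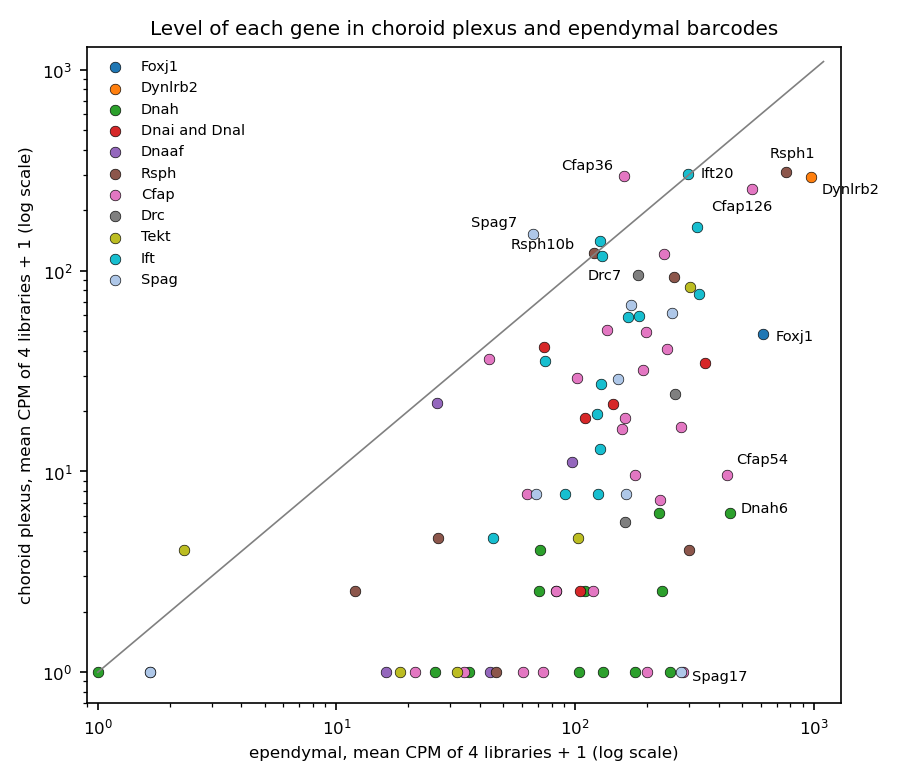
Mean CPM + 1 over 4 libraries of each of the 87 genes in choroid plexus (vertical) against ependymal barcodes (horizontal), both on log scales, coloured by family, with the line of equal level. Dnah genes lie at the bottom, with 0 to 2 UMIs for those of at least 100 CPM, while Rsph1, Dynlrb2, Cfap126 and Ift20 lie nearer the line and Cfap36 and Spag7 above it.

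A few genes with cilium or sperm names were not highest in ependymal barcodes. Spag9, a scaffold for kinases and motor proteins rather than an axoneme part, had 320, 322, 281 and 301 CPM in astrocytes and 134, 143, 251 and 154 CPM in ependymal barcodes, so that the classes did not overlap. It fell by 1.07 ± 0.24 on the log2 scale in ependymal barcodes against astrocytes (edgeR's quasi-likelihood test, adjusted p = 6.7e-05) and was 1.31 ± 0.38 higher than in choroid plexus (adjusted p = 0.0022), a call lost in 5 other settings (adjusted p 0.013 to 0.030), while it did not pass against neurons (-0.04 ± 0.26, adjusted p = 0.90). Spag7 had 42.4, 104, 77.3 and 39.2 CPM in ependymal and 84.9, 250, 107 and 167 CPM in choroid plexus barcodes (log2 difference -1.37 ± 0.36, adjusted p = 7.7e-04). These libraries overlapped, and the call was lost without Dp(10)2Yey replicate 2 (-0.79, adjusted p = 0.16) and when choroid plexus barcodes with an ependymal marker were left out (-0.87, adjusted p = 0.15). Cfap36, which binds a small GTPase of the primary cilium, had 134, 182, 86.9 and 233 CPM in ependymal and 198, 309, 347 and 327 CPM in choroid plexus barcodes. Its log2 difference of -0.72 ± 0.26 did not pass the threshold (edgeR's quasi-likelihood test, adjusted p = 0.014), but passed it with DESeq2 (-1.03, adjusted p = 5.4e-04), with barcodes over 20% mitochondrial removed (-0.97, adjusted p = 0.0010) and with all genes in the clustering (-0.86, adjusted p = 0.0044). Spag5, a protein of the mitotic spindle, had 1 UMI in ependymal barcodes and 22 in astrocytes, and Tekt5 had 2 and 8.

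Single barcodes showed the same order. Unthinned, the median number of the 87 genes with a UMI was 22 in ependymal, 4 in choroid plexus, 2 in astrocyte, 1 in neuron and 1 in microglia barcodes, whose median depths were 2383, 1451, 1618, 1773 and 3600.5 UMIs. After each barcode was thinned to 500 UMIs, which every analysed barcode reached, the medians were 6.5, 1, 0, 0 and 0 genes. At that depth 117 of 126 ependymal barcodes (92.9%, exact binomial interval 86.9 to 96.7%) had at least 3 of the genes, against 33 of 126 choroid plexus barcodes (26.2%, 18.8 to 34.8%). The share was 1.68% in astrocytes and 0.703% in neurons, beside 0.271% in microglia. Per library it was 91.7%, 100%, 88.2% and 94.1% in ependymal and 37.5%, 22.9%, 18.2% and 28.3% in choroid plexus barcodes. The median number of genes per thinned ependymal barcode was 6 in WT replicate 1, whose barcodes were shallow, and 7 in each of the other libraries. The ependymal barcode with the most had 79 of the 87 genes, from 581 of its 37374 UMIs. Intervals cover counting error only.

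**Figure D3:**
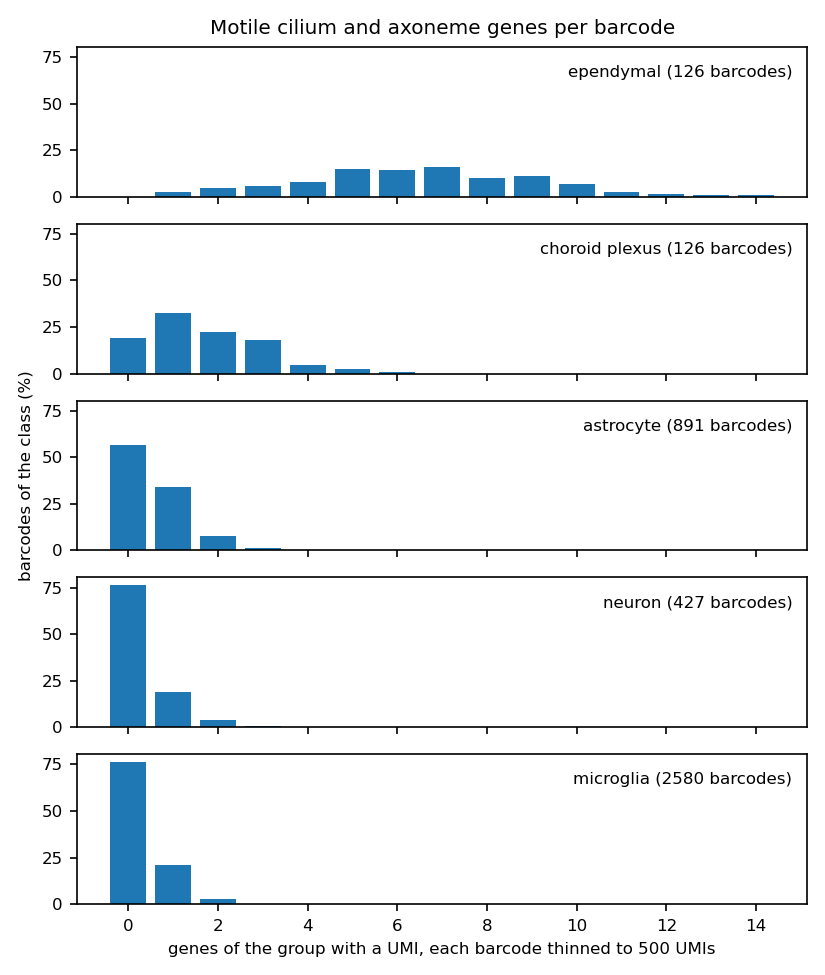
Share of barcodes (vertical, %) of 5 classes by the number of the 87 genes with a UMI (horizontal), after each barcode was thinned to 500 UMIs. Ependymal barcodes centre on 6 to 7 genes, choroid plexus barcodes on 1, and astrocyte, neuron and microglia barcodes on 0.

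The study's main contrast, Dp(10)2Yey against WT, was then read in these genes within each class, with 2 libraries a genotype. In ependymal barcodes the 87 genes summed to 13509 and 15627 CPM in WT and 13802 and 15924 CPM in Dp(10)2Yey libraries, and the genotypes overlapped. With 2 against 2 an exact permutation test of such a single value cannot go below a two-sided p of 0.333. Of the 87 genes 67 passed the count filter, and edgeR's quasi-likelihood test called 0 of them, as it called 0% of all 2808 genes tested there. At an unadjusted p under 0.05 it gave 1 of the 67 genes (1.49%) and 114 of all genes (4.06%). DESeq2 gave 0 of the 67 at that level, but also no more than 6 of all 2808 genes. Log2 differences ran from -0.65 to 0.43 with a median of -0.01, 33 above 0 and 34 below, with standard errors of 0.22 to 0.53. With 2 mice a genotype and adjustment over 2808 genes, changes larger than these could have been missed, and the 0 calls do not show that the genes were unchanged.

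The gene with the smallest p was Ift46, of the outbound transport complex, with 219 and 175 CPM in WT and 135 and 131 CPM in Dp(10)2Yey ependymal barcodes. These did not overlap, but the log2 difference of -0.63 ± 0.31 (unadjusted p = 0.0484) did not hold after adjustment (edgeR's quasi-likelihood test, adjusted p = 0.999). Next came Ift43, with 325 and 227 CPM in WT and 386 and 382 CPM in Dp(10)2Yey (0.43 ± 0.25, unadjusted p = 0.0925 by the same test). Dnal1 (-0.52 ± 0.37), Ift74 (-0.49 ± 0.36) and Cfap70 (0.41 ± 0.31) followed. Foxj1 had a log2 difference of -0.22 ± 0.22, with 658 and 649 CPM in WT and 570 and 581 CPM in Dp(10)2Yey libraries.

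**Figure D4:**
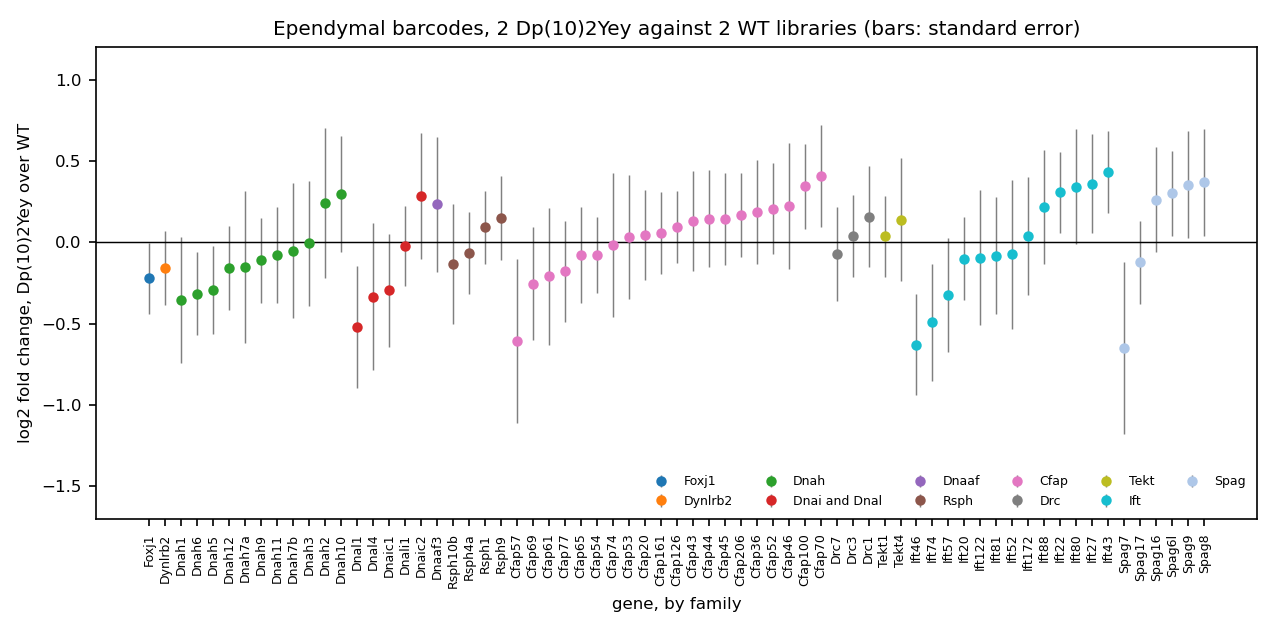
Log2 fold change of Dp(10)2Yey over WT in ependymal barcodes (vertical) for the 67 genes tested (horizontal, by family), with standard errors as bars. The values lie on both sides of 0, between -0.65 and 0.43, and 0 genes passed the threshold.

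Other classes gave the same count of calls. In choroid plexus, astrocyte and neuron barcodes 5, 15 and 10 of the genes passed the filter and 0 were called (all genes: 0% called in choroid plexus, 0.0608% higher and 0.0304% lower in astrocytes and 0% in neurons). At an unadjusted p under 0.05 edgeR's quasi-likelihood test gave 0 of them, beside 3.64%, 4.28% and 2.96% of all genes. DESeq2 gave 0 of them at that level too, beside 8 of 770, 30 of 6583 and 28 of 5073 genes. The difference between the genotype effects in ependymal and astrocyte barcodes was tested for 71 genes and called for 0 (0.0474% of all genes were called lower), also with 0 at an unadjusted p under 0.05 (1.88% of all genes). Summed over all barcodes, as bulk tissue would be, the genes had 1448 and 1221 CPM in WT and 1133 and 1574 CPM in Dp(10)2Yey libraries. In such sums fewer cells of a type and less RNA per cell cannot be told apart, and ependymal barcodes were 5.92% and 0.892% of the WT and 1.26% and 1.54% of the Dp(10)2Yey libraries. Of 77 genes tested over all barcodes 0 were called and 0 had an unadjusted p under 0.05, where 0% and 2.72% of all genes did.

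Orthologs of human chromosome 21 cilium genes were read because the mouse models part of that chromosome. Rsph1 lies on mouse chromosome 17, outside the duplication, and had a log2 difference between genotypes of 0.09 ± 0.22 in ependymal barcodes. The files list Cfap298 and Cfap410 under the older symbols 1110004E09Rik and 1810043G02Rik, which the choice by symbol did not take. 1110004E09Rik, whose product helps to assemble dynein arms, had 332, 221, 367 and 264 CPM in ependymal and 623, 235, 214 and 346 CPM in choroid plexus barcodes, against means of 25.4 CPM in astrocytes and 39.4 CPM in neurons. 1810043G02Rik (chr10:77978524-77986905, mm10), a protein of the ciliary base, lies in the duplicated segment. It had 14.1 and 58.4 CPM in WT and 38.6 and 91.6 CPM in Dp(10)2Yey ependymal barcodes, which overlapped. Over all barcodes its log2 difference was 0.97 ± 0.24 (edgeR's quasi-likelihood test, unadjusted p = 0.00372), which did not pass the threshold after adjustment (adjusted p = 0.99995, and 0.015 with no filter on low counts). In astrocytes it was 1.48 ± 0.59 (unadjusted p = 0.0127 and adjusted p = 0.99999 by the same test, and unadjusted p = 0.117 with DESeq2). In ependymal barcodes the gene was tested with no filter alone, at 1.05 ± 0.51 (unadjusted p = 0.0402, adjusted p = 0.96).

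Cilium genes outside the chosen symbols were read from 3 further lists, with no filter on low counts, beside the shares of all genes called higher against choroid plexus, astrocytes and neurons (13.2%, 10.1% and 12.3%). Of 44 other motile axoneme genes, all tested, 39 were higher in ependymal barcodes than in choroid plexus, 43 than in astrocytes and 44 than in neurons, with 0 lower. With the filter 35 were tested and 33, 34 and 35 were higher (36.5%, 24% and 28.4% of all genes). Enkur, a spoke and microtubule protein of motile cilia, had 354, 441, 377 and 392 CPM in ependymal barcodes and 2 UMIs in choroid plexus. Ak7, an adenylate kinase of the axoneme, had a mean of 469 CPM against 30.3 CPM in choroid plexus. Meig1 had means of 937 and 82.5 CPM. Of 27 other transport and BBSome genes, all tested without the filter, 16, 21 and 20 were higher, and 11, 11 and 10 of the 13 that passed it. Arl6, a GTPase of the BBSome, had 142 ± 47.3 CPM in choroid plexus and 68.7 ± 6.76 CPM in ependymal barcodes (SD, n = 4). Its difference was the lowest of the list and was not called (-0.79 ± 0.36, edgeR's quasi-likelihood test, adjusted p = 0.049). Of 7 other dynein assembly genes 6 were tested without the filter and 5 with it, and 4, 5 and 5 were higher in both.

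Of 11 transcription factors and other regulators of multiciliation, apart from Foxj1, 9 were tested with no filter, and 4, 6 and 4 were higher in ependymal barcodes than in choroid plexus, astrocytes and neurons (13.2%, 10.1% and 12.3% of all genes), with 0 lower. With the filter 2 were tested. Myb had 127, 169, 145 and 152 CPM in ependymal barcodes and 0 UMIs in choroid plexus and neurons. Rfx3, of the factor family whose letters were searched in the promoters, had 141, 156, 77.3 and 152 CPM in ependymal barcodes, but also 33.1 to 138 CPM in neurons and 45.7 to 60.2 CPM in astrocytes. Both were called higher in ependymal barcodes than in choroid plexus and astrocytes, and Myb alone than in neurons, by edgeR's quasi-likelihood test. Mcidas, Cdc20b and Foxn4, which act while multiciliated cells form, had 0 UMIs in ependymal barcodes, which allows up to 3.84 CPM.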

How the data were processed

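The authors aligned the reads and counted UMIs with Cell Ranger 3.0.2 (mm10), per the labels and the study's methods, and deposited raw counts per gene and barcode for 1 library from each of 4 mice. The 87 genes, the lists and the tests were chosen with earlier results of these data known. From the deposited counts, barcodes with at least 200 genes were kept (6281 of 6464), 35 red blood cell barcodes were removed, and the rest were integrated and clustered with Seurat 5.3.0 (R 4.3.3; 2000 variable genes a library, 50 dimensions, resolution 0.2) as in the study's methods, but without 188 cilium genes. Scrublet in scanpy 1.11.5 called 51 doublets (0.817%), 0 of them ependymal or choroid plexus, which were kept. UMIs were summed per library and class (at least 10 barcodes) and tested with edgeR 4.0.16 (quasi-likelihood, TMM, filterByExpr, Benjamini-Hochberg, adjusted p under 0.01, the study's threshold), with the library as a block between classes and no block between genotypes. The step was tested on simulated data. Genes were named by rule: Foxj1, Dynlrb2, the 3 highest of each family in ependymal barcodes, the 3 highest of those at least as high in another class, the 5 of smallest genotype p, and chromosome 21 orthologs. Rsph10b, Ift57, Cfap43, Dnah3, Dnah9, Dnah10 and Dnah11 and the genes of other lists were named after their values were seen. So were Dnah7b and Dnah7c in the heat map. Reads that fit near copies equally may be missing from both. Because a 3′ library counts molecules at 1 end, levels were not divided by gene length. Alternatives were RLE size factors, DESeq2 1.42.0, no filter, other clusterings and barcode filters, and leaving out each library.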

Additional observations from a re-analysis of the deposited data

Results flagged for a closer look

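In 4 of 44 sets of 4 library values, 1 library lay apart from the other 3 by Dixon's test at 95%, which chance does in about 5% of such sets. The share of a library's barcodes that were ependymal was 5.92% in WT replicate 1 and 0.892 to 1.54% in the others. Dnaaf3 in ependymal barcodes was 135 CPM in Dp(10)2Yey replicate 1 and 77.9 to 86.3 CPM in the others. Spag5 was 2.62 CPM in Dp(10)2Yey replicate 2, from 1 UMI, and 0 in the others. Tekt5 was 5.23 CPM in the same library, from 2 UMIs, and 0 in the others. With UMIs in 1 library alone, Spag5 and Tekt5 were bound to be flagged, so the 5% does not apply to them.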

How the results depend on the processing

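Over the settings tried, the number of genes called stayed within 1.5 times its main value in the 3 comparisons between classes. Leaving out each library gave 50 to 62 calls against choroid plexus (57 in the main analysis), 56 to 68 against astrocytes (63) and 55 to 66 against neurons (62). The shares of all genes called moved as well. Those called higher were 36.5%, 24% and 28.4% in the main analysis and 25.6%, 20% and 24% without WT replicate 1. Genotype comparisons and the difference between the genotype effects gave 0 calls in the main analysis and 0 without each library, where a genotype is left with 1 mouse, assumed to vary like the others, and such counts say nothing about stability. With DESeq2 the calls were 45 higher and 2 lower against choroid plexus, 59 and 1 against astrocytes and 57 and 0 against neurons (all genes: 24.4% and 16.1%, 20.2% and 20.8%, and 23.8% and 23.7%). The values that moved by more than the spread between libraries, or counts by over 1.5 times, were the choroid plexus share of UMIs, 0.289% without integration of the libraries against 0.357%, the neuron share, 0.0594% after thinning to 500 UMIs against 0.103%, and the number of neuron barcodes, 154 of 427 once those over 20% mitochondrial were removed; the cause was not tested. Choroid plexus barcodes numbered 164 without integration, against 126. Scaling moved the median of all genes against choroid plexus from 0.96 (log2) to 1.25 with RLE factors and 0.56 with DESeq2, and the share of all calls that were higher from 73.0% to 79.2% and 60.4%. Among named genes against choroid plexus, 10 values lost and 6 gained a call and 442 stayed on their side of the threshold, called or not, with 0 reversed. Spag9 (1.31, adjusted p = 0.0022 in the main analysis) lost it in 5 settings (adjusted p 0.013 to 0.030), Ift22 and Ift46 with DESeq2 (0.016 and 0.018), and Spag17, with 0 UMIs in all 3 other classes, lost it with DESeq2 at fitted log2 differences of 6.54 against choroid plexus (adjusted p = 0.18), 9.37 against astrocytes (0.0505) and 8.48 against neurons (0.073).

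Replicate numbers were not taken as pairs, since the labels do not tie them to a day. Deviations of same-numbered libraries correlated at -0.10 to 0.07, which does not show whether they share one. With a replicate block, the genotype comparisons called 0 genes in each class. Preparation days held 1 mouse of each genotype, and the days were not matched to libraries here. Depth limits choroid plexus most, where 1 UMI is 6.17 to 28.3 CPM, and the genotype contrast, where 2 mice a group gave standard errors of at least 0.22. Leaving out choroid plexus barcodes with an ependymal marker, and leaving out WT replicate 1 with no filter on low counts, were chosen after seeing the data.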

Other observations

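Some of the genes had UMIs in barcodes of classes without motile cilia. Foxj1 had 18.3, 34.3, 34.2 and 19.6 CPM in oligodendrocyte barcodes of the 4 libraries, and 110 of 970 of them (11.3%, exact binomial interval 9.41 to 13.5%) had a UMI, at a median depth of 4969 UMIs, against 2 UMIs in 2580 microglia barcodes. Dynlrb2 and Rsph1 had 3 and 0 UMIs in microglia. Tppp3, an axoneme list gene, had 355 ± 59.9 CPM in oligodendrocytes and 870 ± 93.5 CPM in ependymal barcodes (SD, n = 4). In microglia, Cfap74 had 15.8 ± 2.89 CPM (SD, n = 4), with a UMI in 143 barcodes (5.54%), against 3 of 970 in the deeper oligodendrocyte barcodes (0.309%). Cfap45 had 12.3 ± 3.22 CPM there, with a UMI in 104 barcodes (4.03%), against 0 of 970 oligodendrocyte barcodes (exact binomial upper limit 0.380%). The median depth of microglia was 3600.5 UMIs. Spag5, of the mitotic spindle, had 17.1 CPM in immature neurons and neuroblasts against 0.654 CPM in ependymal barcodes. Dnah8, at 0 UMIs in ependymal barcodes, had 8.70 CPM in oligodendrocyte precursors. These values were chosen after they were seen.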
